A study of Rattus norvegicus with 3 samples.

Results

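Collagen chain genes encode the polypeptides that wind around each other, in groups of 3, into the triple helix of a collagen molecule. They were chosen by name, as the rat RefSeq genes whose symbol is Col, a number, the letter a and a number and whose accession was carried by a probe of the arrays that was not a control. The rule gave 23 of the 39002 genes on the arrays, where an accession without a symbol counts as a gene, and these 23 genes had 31 probes on 78 spots. The RefSeq table held 44 such symbols, and the 21 with no matching accession, among them Col4a2, Col4a3, Col4a5, Col5a2, Col6a1 and Col6a3, were not analysed here. Of the 23 genes, 8 encode fibrillar collagens, 2 encode type IV collagens and 13 encode other collagens.

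Gene expression was measured in the cerebellar cortex of male Wistar rats aged 9 weeks, with 3 arrays in all. The contralateral array held left cerebellar cortex taken 2 days after transient occlusion of the right middle cerebral artery (MCAO) with a filament passed up the carotid artery, and the ipsilateral array held right cerebellar cortex of the same 4 rats. The control array held left cerebellar cortex of 4 rats taken 2 days after a sham operation, in which no filament was passed. Each array held the pooled tissue of 4 rats, so there were no replicates and no test, and the rats of the MCAO group had been kept only if their neurological score fell in a set range. No right cerebellar cortex of control rats was on the arrays, so side and operation cannot be told apart in the ipsilateral array.

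Fibrillar collagens such as types I, II, III, V and XI form the banded fibrils that give tissue its tensile strength. Type IV collagens form the sheet-like network of basement membranes. The remaining chains form short networks, beaded filaments, anchoring fibrils or plasma membrane proteins, or sit on the surface of fibrils and in basement membranes. In brain, fibrillar collagen is known mainly from the meninges, the walls of larger vessels and the stroma of the choroid plexus, and type IV collagen from the basement membranes of vessels and of the glial border.

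All levels are processed signals on the log2 scale after each array was shifted to the same 75th percentile, called the scaled signal below. A probe counted as measured when the scanner software marked it well above background on all 3 arrays, and the value of a gene was the mean over its measured probes. By this rule 21 of the 23 genes were measured, which were all 8 fibrillar, both type IV and 11 of the 13 other collagens. The scanner software's own error of a ratio between 2 arrays had a median of 0.21 on the log2 scale over these genes, and a range from 0.20 to 0.37. It covers neither rats nor hybridisations. Both MCAO arrays were compared with the same control array, so the values of the 2 comparisons are given side by side and were not set against each other. A reading of the control array alone can place a gene below or above on both sides.

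The labelled tissue was checked against 10 markers of cerebellar neurons, all of which were measured. Their summed scaled intensity was 165194 on the contralateral, 166912 on the ipsilateral and 163610 on the control array, and the brightest was Cbln1. Their median log2 ratio to control was 0.05 contralaterally and 0.00 ipsilaterally, with extremes at Zic1 (-0.19) and Pvalb (0.21) contralaterally and at Neurod1 (-0.17) and Pvalb (0.26) ipsilaterally.

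The fibrillar collagens were lower in the contralateral cerebellar cortex than in control for 8 of 8 genes, against 47.8% of all measured genes, with a median log2 ratio of -0.39. On the ipsilateral side 7 of 8 were lower, against 44% of all measured genes, with a median of -0.32. Both medians stayed negative under all 11 other processings, and shrank to -0.18 and -0.14 under normexp, a background correction used here with an offset of 50. Of the 2 type IV collagens, Col4a1 was lower on both sides and Col4a4 was within its error of control, with signs that depended on the processing. The 11 other collagens spread on both sides of 0, with a median of 0.12 contralaterally and 0.28 ipsilaterally, and both of these medians turned negative under at least 1 other processing. Over all 23255 genes measured by the same rule, the median was 0.01 and 0.03. In bulk tissue, fewer cells of a type and less RNA per cell cannot be told apart.

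**Figure D1:**
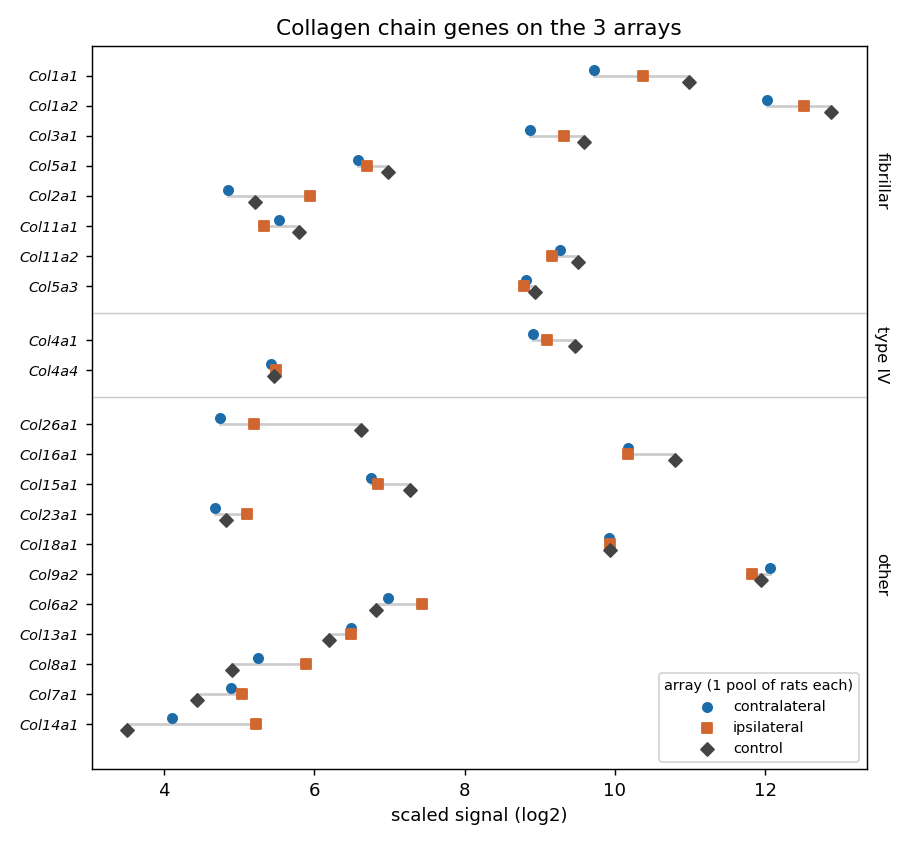
Scaled signal (log2, horizontal axis) of the 21 measured collagen chain genes on the contralateral, ipsilateral and control arrays, each 1 pool of 4 rats, with genes grouped by class and a grey line from the lowest to the highest array. The control array was the highest for 11 genes, the ipsilateral array for 8 and the contralateral array for 2. The same count over all genes was not made, so these numbers do not set the collagens apart.

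Col1a1 and Col1a2 encode the chains of type I collagen, the main fibril of meninges, adventitia and other connective tissue. The scaled signal of Col1a1, the mean of 2 probes, was 9.73 on the contralateral, 10.38 on the ipsilateral and 10.99 on the control array. The control array was thus the highest and the contralateral array the lowest. The log2 ratio to control was -1.26 contralaterally (2.39-fold lower, scanner error 0.20) and -0.61 ipsilaterally (1.52-fold lower). The probes differed in size and not in direction, with contralateral log2 ratios of -1.55 and -0.97, so that Col1a1 lay past a ratio of -1 by its mean and not by its brighter probe.

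The scaled signal of Col1a2 was 12.03 on the contralateral, 12.51 on the ipsilateral and 12.88 on the control array. The order of the arrays was that of Col1a1. Its log2 ratio to control was -0.85 contralaterally (1.80-fold lower) and -0.37 ipsilaterally (1.29-fold lower), each beyond its scanner error of 0.20. The contralateral array was also below the ipsilateral array for both chains, by log2 ratios of -0.65 for Col1a1 and -0.48 for Col1a2.

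Col3a1 encodes the chain of type III collagen, which forms fibrils together with type I in vessel walls and other pliable tissue. Its probe was spotted 10 times on each array, and the mean over these spots was 8.87 on the contralateral, 9.32 on the ipsilateral and 9.59 on the control array. The spots of the arrays did not overlap here, since the highest contralateral spot was at 9.00, the ipsilateral spots ran from 9.18 to 9.40 and the lowest control spot was at 9.46. The log2 ratio to control was -0.73 contralaterally and -0.27 ipsilaterally. Spots of 1 probe on 1 array share the same pooled RNA and give the precision of the array alone. Of all 1289 measured probes with at least 8 usable spots, all contralateral spots lay below all control spots for 16% and all ipsilateral spots did for 11.6%. All contralateral spots lay below all ipsilateral spots for 7.76%, and these 2 arrays did not overlap in either direction for 9.7%.

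The Col1a2 promoter is shown because Col1a2 was lower on both sides beyond its error, and those of Col5a1 and Col16a1 stand beside it as further chains with that pattern, which Col5a1 lost under other processing (below). The table, from RefSeq on the GRCr8 assembly, held a promoter for 16 of the 21 measured genes. The windows lie upstream of the annotated start, 5′ to 3′ on the plus strand, at chr4:33518307-33518556 for Col1a2, chr3:31606730-31606879 for Col5a1 and chr5:147672896-147673095 for Col16a1. Capitals mark the letters CCAAT (the CCAAT box), GGGCGG (the GC box) and TATAAA (the TATA box), read on either strand and with no overlap between the motifs in these windows.
Col1a2: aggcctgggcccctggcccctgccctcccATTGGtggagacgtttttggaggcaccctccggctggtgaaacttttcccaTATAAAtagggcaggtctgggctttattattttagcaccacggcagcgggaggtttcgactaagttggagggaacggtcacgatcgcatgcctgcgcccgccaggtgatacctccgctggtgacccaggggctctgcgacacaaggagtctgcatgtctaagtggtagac
Col5a1: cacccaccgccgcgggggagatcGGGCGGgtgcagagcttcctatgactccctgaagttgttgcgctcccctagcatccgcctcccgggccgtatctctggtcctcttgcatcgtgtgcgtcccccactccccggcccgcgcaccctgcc
Col16a1: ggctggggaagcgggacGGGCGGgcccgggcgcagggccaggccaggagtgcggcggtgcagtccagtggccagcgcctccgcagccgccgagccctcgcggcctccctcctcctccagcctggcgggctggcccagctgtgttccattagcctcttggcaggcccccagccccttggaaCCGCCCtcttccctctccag
In the 250 bases before the start, CCAAT was found on either strand in 34% of all 33469 promoters, GGGCGG in 30.5% and TATAAA in 12.9%. Among the 16 collagens with a promoter, 4 held CCAAT, 10 held GGGCGG and 2 held TATAAA. Col1a2 held CCAAT, as its reverse complement, and TATAAA, and no GGGCGG in this window. These 2 matches began 221 and 170 bases before the annotated start of Col1a2. Whether transcription begins at that start in this tissue was not tested, so the window may not be the promoter in use. Col5a1 and Col16a1 held GGGCGG and neither of the other motifs. A match describes the letters and was not tested as a binding site.

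Col5a1 and Col5a3 encode chains of type V collagen, which starts and limits the growth of type I fibrils. The Col5a1 probe with 10 spots had a mean scaled signal of 7.66 on the contralateral, 7.73 on the ipsilateral and 8.10 on the control array. Both MCAO arrays lay below every control spot, and their own spots overlapped each other. Its log2 ratios to control were -0.43 and -0.37, and a dimmer probe of the gene gave -0.38 and -0.20. The mean over both probes, -0.41 and -0.28 with a scanner error of 0.21 and 0.22, shrank to -0.18 and -0.04 under normexp and to -0.24 and -0.04 with 50 added. Col5a3 had 8.81 contralaterally, 8.79 ipsilaterally and 8.93 in control. Its ratios of -0.12 and -0.15 were within the scanner error.

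Col2a1, Col11a1 and Col11a2 encode chains of the fibrils of cartilage and of the vitreous, where the products join in type XI collagen. Col11a1 had a scaled signal of 5.53 on the contralateral, 5.33 on the ipsilateral and 5.80 on the control array, and Col11a2 had 9.27, 9.16 and 9.51. Both were highest in control, with log2 ratios of -0.26 and -0.47 for Col11a1 and of -0.24 and -0.35 for Col11a2. The contralateral log2 ratio of Col11a1 shrank to -0.02 under normexp. Its ipsilateral sign turned to 0.04 when 50 was added to every signal and to 0.15 under normexp with that offset, and that of Col11a2 turned to 0.38 when its dim probe was averaged in, while its contralateral ratio became -0.996. The scanner software did not mark that probe well above background contralaterally, where it was at least 2.96-fold lower than in control and at least 6.39-fold lower than on the ipsilateral array. Such bounds set the brighter array against the higher of the probe's own signal and the lowest signal marked well above background on the dimmer array.

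Col2a1, at 4.85 on the contralateral, 5.94 on the ipsilateral and 5.22 on the control array, was the only fibrillar chain with opposite signs on the 2 sides. Its log2 ratio was -0.37 contralaterally (scanner error 0.25) and 0.72 ipsilaterally (scanner error 0.24). The contralateral log2 ratio shrank to -0.07 with 50 added and its sign turned to 0.01 under normexp with an offset of 50.

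**Figure D2:**
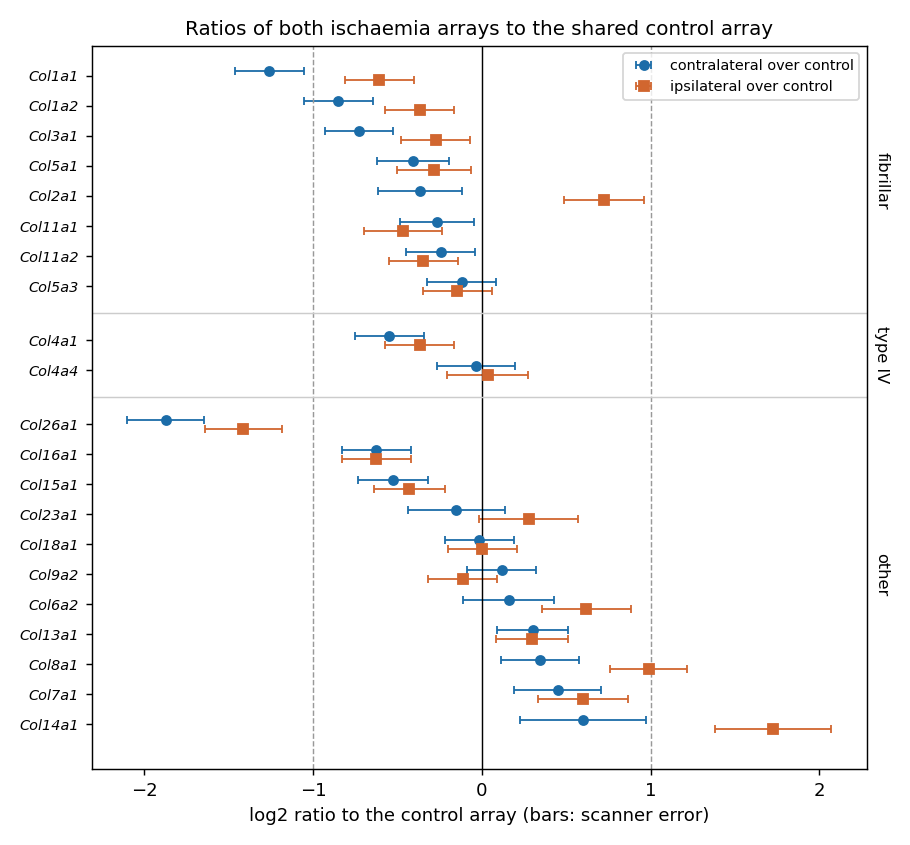
Log2 ratio to the control array (horizontal axis) of the 21 measured collagen chain genes on the contralateral and ipsilateral arrays, with bars for the scanner error, which covers neither rats nor hybridisations, and dashed lines at -1 and 1. All 8 fibrillar chains lie below 0 contralaterally, and Col1a1 has the lowest ratio of them at -1.26; the contralateral signs of Col2a1 and the ipsilateral signs of Col11a1 and Col11a2 change under other processing.

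Col4a1 encodes a chain of the type IV network found in nearly every basement membrane. Its probe was spotted 10 times, and the mean scaled signal was 8.91 on the contralateral, 9.10 on the ipsilateral and 9.46 on the control array. All spots of both MCAO arrays lay below the lowest control spot at 9.40, while the contralateral and ipsilateral spots overlapped. The log2 ratio to control was -0.55 contralaterally (1.46-fold lower) and -0.37 ipsilaterally (1.29-fold lower). Both signs held under all 11 other processings.

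Col4a4 encodes a chain of a second type IV network, known from the glomerulus and few other sites. Its scaled signal was 5.43 on the contralateral, 5.50 on the ipsilateral and 5.46 on the control array. Its log2 ratios of -0.04 and 0.03 were within the scanner error. Contralaterally the sign turned under 3 other processings and ipsilaterally under 4, where the ratio ran from -0.50 without scaling to 0.29 with 50 added, both beyond its error of 0.24. The median over the 2 type IV chains, -0.29 contralaterally and -0.17 ipsilaterally, is the midpoint of Col4a1 and this chain.

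Col4a1 lies head to head with Col4a2, and the chains join in 1 molecule. The stretch between the starts of the pair, 76 bases at chr16:84885521-84885596 on GRCr8, is printed on the plus strand because it lies upstream of the measured Col4a1 and of Col4a2, which was not analysed here.
Col4a1 to Col4a2: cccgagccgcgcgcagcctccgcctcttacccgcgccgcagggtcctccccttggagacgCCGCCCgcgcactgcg
It held GGGCGG, as its reverse complement in capitals, and neither CCAAT nor TATAAA.

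**Figure D3:**
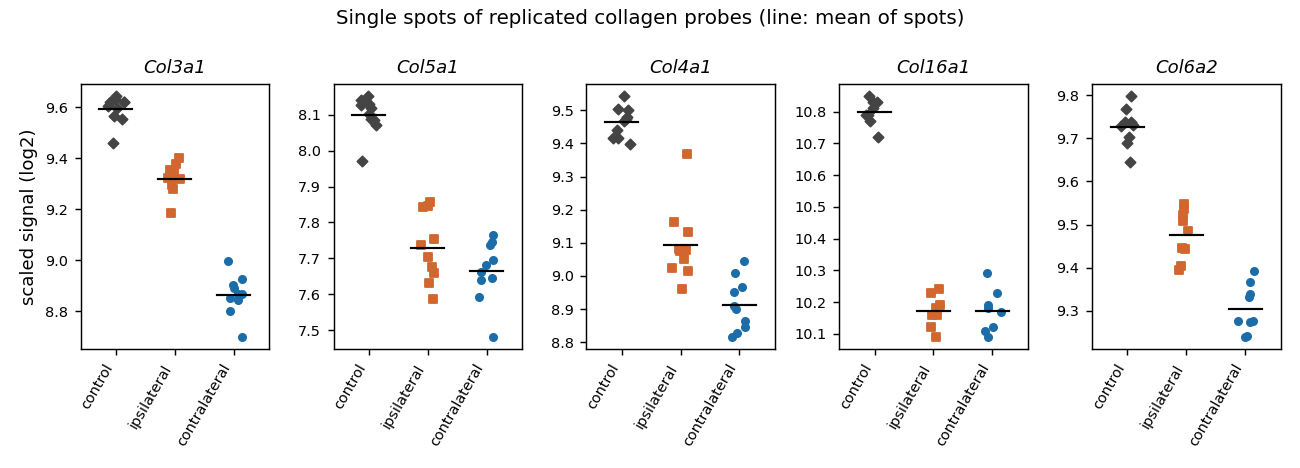
Scaled signal (log2, vertical axis, which does not start at 0) of each usable spot of the Col3a1, Col5a1, Col4a1, Col16a1 and Col6a2 probes that had 8 to 10 usable spots on each array, with a line at the mean. In each panel all control spots lie above all contralateral and all ipsilateral spots, as they did for 9.62% of all 1289 measured probes with at least 8 usable spots, and spots are repeats within an array, not rats.

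Col16a1 and Col9a2 encode chains of collagens that sit on fibrils, and Col14a1 belongs to the same family. Col16a1 had 8 usable spots with means of 10.17 on the contralateral, 10.17 on the ipsilateral and 10.80 on the control array. The MCAO arrays were level with each other and the highest of their spots, at 10.29, lay below the lowest control spot at 10.72. Its log2 ratio was -0.63 on both sides, with an SD between spots of 0.07 contralaterally, 0.05 ipsilaterally and 0.04 in control. Col9a2 was near level at 12.07, 11.83 and 11.95, with a contralateral ratio of 0.12 that turned negative without scaling and an ipsilateral ratio of -0.11, each within its scanner error.

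Col14a1, also a fibril-associated chain, was dim on every array, at 4.11 on the contralateral, 5.23 on the ipsilateral and 3.51 on the control array. It was highest ipsilaterally and lowest in control. Its log2 ratio was 0.60 contralaterally (scanner error 0.37) and 1.72 ipsilaterally (scanner error 0.35). The log2 ratios shrank to 0.18 and 0.79 under normexp and to 0.25 and 0.87 with 50 added, so that the ipsilateral ratio no longer passed 1.

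Col15a1 and Col18a1 encode the multiplexins, basement membrane collagens whose C-terminal pieces are known as restin and endostatin. Col15a1 had a scaled signal of 6.75 on the contralateral, 6.85 on the ipsilateral and 7.28 on the control array, with log2 ratios of -0.53 and -0.43. Col18a1 was level across the arrays at 9.93, 9.94 and 9.94, with log2 ratios of -0.02 and 0.00. Col15a1 was lower on both sides beyond its scanner error of 0.21, but its log2 ratios shrank to -0.25 and -0.08 under normexp and to -0.35 and -0.17 with 50 added, where the ipsilateral one was within that error.

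Col6a2 encodes a chain of the beaded filaments of type VI collagen. Its probes disagreed. The probe with 9 usable spots had means of 9.30 on the contralateral, 9.48 on the ipsilateral and 9.73 on the control array. Its spots did not overlap between the arrays (shares over all probes are given with Col3a1). Its log2 ratios were -0.42 and -0.25. A dim probe with 1 spot had 4.65, 5.40 and 3.91 in the same order and ratios of 0.74 and 1.49. The mean over both probes, 0.16 contralaterally and 0.62 ipsilaterally, therefore has the sign of the dim probe, and Col6a2 is the 1 measured chain whose direction depended in both comparisons on which probe was read. The contralateral mean turned to -0.02 under normexp and -0.03 with 50 added, and the ipsilateral one shrank to 0.27 and 0.31.

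Col26a1 encodes a short collagen known from gonads. Its scaled signal was 4.74 on the contralateral, 5.20 on the ipsilateral and 6.62 on the control array. It was highest in control, with log2 ratios of -1.87 (scanner error 0.23) and -1.41 (scanner error 0.23). Both signs held under all 11 other processings, but the sizes did not. The log2 ratios shrank to -0.90 and -0.51 under normexp and to -0.93 and -0.53 with 50 added, where neither passed -1, and the ipsilateral ratio was -0.64 when the dimmer probe was averaged in. A dimmer probe, which contralaterally was not marked well above background, was at least 2.04-fold lower there than in control. Ipsilaterally that probe was level with control, with a log2 ratio of 0.13.

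Col8a1, a chain of the short-chain network of vessels and cornea, had 5.25 on the contralateral, 5.90 on the ipsilateral and 4.91 on the control array. Col7a1, the chain of anchoring fibrils, had 4.90, 5.05 and 4.45. Both were lowest in control, with log2 ratios of 0.34 and 0.99 for Col8a1 and of 0.45 and 0.60 for Col7a1, whose contralateral ratio shrank to 0.21 under normexp. The transmembrane collagens are anchored in the plasma membrane, and of them Col13a1 had 6.49, 6.49 and 6.19. Col23a1, the mean of 3 dim probes, had 4.68, 5.11 and 4.83. Col13a1 was thus higher than control on both sides by 0.30, and Col23a1 had ratios of -0.15 and 0.28 within its scanner error. Their signs changed under other processing, ipsilaterally for Col13a1 without scaling (-0.24) and on both sides for Col23a1.

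The remaining 2 genes were not measured. Col6a5 was not well above background on any array. Of the 2 probes of Col9a1, 1 was well above background on the ipsilateral array alone, where it was at least 1.86-fold higher than in control and at least 1.61-fold higher than contralaterally, and its partner in type IX collagen, Col9a2, was near level as given above.

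At the threshold of the study's methods, a log2 ratio past 1 or -1, few chains were called. Contralaterally 2 of 21 were below -1, Col1a1 and Col26a1, against 0.873% of all genes, and 0 were above 1, against 1.49%. Ipsilaterally Col26a1 was below -1, against 0.83% of all genes, and Col14a1 was above 1, against 3.28%. Between the MCAO arrays, 2 of 21 chains, Col2a1 and Col14a1, were below -1 in contralateral over ipsilateral, against 1.62% of all genes, and 0 were above 1, against 0.224%. With 21 genes these counts are too small to set the collagens apart.

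Most collagens that differed did so by less than 2-fold. Contralaterally 11 of 21 lay below 0 by more than their scanner error, against 17.4% of all genes, and 4 lay above it, against 15.9%. The 11 included 7 of the 8 fibrillar chains, Col4a1, Col15a1, Col16a1 and Col26a1. Ipsilaterally 10 of 21 lay below, against 15% of all genes, and 6 above, against 22.2%. Without scaling and with the same errors, 15 of 21 lay below ipsilaterally, against 82.7% of all genes, and 13 contralaterally, against 36.2%. With spike-in scaling, 13 lay below ipsilaterally, against 52.1%, and 11 contralaterally, against 26%. Held to the same errors under normexp, 7 of 21 lay below contralaterally, against 6.47% of all genes, and 7 ipsilaterally, against 4.93%. The fibrillar chains among the 7 were then 3 contralaterally, Col1a1, Col1a2 and Col3a1, and these with Col11a2 ipsilaterally. Under normexp 2 lay above contralaterally, against 12.8% of all genes, and 8 ipsilaterally, against 34%. With 50 added, 9 lay below contralaterally, 5 of them fibrillar, against 7.38% of all genes, and 7 ipsilaterally, against 5.34%. In that setting 1 lay above contralaterally, against 12.3% of all genes, and 8 ipsilaterally, against 33.9%. For contralateral over ipsilateral, 9 of 21 lay below, against 16.7% of all genes, and 1, Col9a2, lay above, against 6.68%. Without scaling, 4 lay below in that comparison, against 4.25% of all genes, and 10 above, against 77.1%. With spike-in scaling, 8 lay below, against 8.67%, and 3 above, against 35%.

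The comparison of the MCAO arrays asks whether the sides of the same rats differed. The median of contralateral over ipsilateral was -0.29 for fibrillar, -0.13 for type IV and -0.15 for other collagens, against -0.01 for all genes, and each of these 3 medians turned positive without scaling, as those of type IV (0.05) and other collagens (0.02) did with spike-in scaling. Without scaling, the median of all genes itself moved to 0.37 in this comparison, to -0.14 for contralateral over control and to -0.50 for ipsilateral over control. With spike-in scaling it moved to 0.16, -0.07 and -0.22 in the same order, and ipsilateral over control moved to 0.13 with normexp, 0.12 with 50 added and 0.13 with all probes. Relative to the median of all genes, the fibrillar median was -0.40 contralaterally and -0.35 ipsilaterally over control and -0.28 between the sides. A setting that multiplies an array by 1 factor cannot change a relative value. Over the other settings the relative fibrillar median ran from -0.61 to -0.23 contralaterally, from -0.41 to -0.27 ipsilaterally and from -0.44 to -0.23 between the sides. That of the type IV chains ran from -0.33 to -0.27, from -0.30 to -0.14 and from -0.13 to -0.02. On that relative scale contralateral over ipsilateral was -0.64 for Col1a1, -0.47 for Col1a2, -0.44 for Col3a1, -0.17 for Col4a1 and 0.01 for Col16a1. Before that subtraction, Col1a1, Col1a2 and Col3a1 were lower contralaterally than ipsilaterally under all 11 other processings, by log2 ratios of as little as -0.27, -0.10 and -0.07 without scaling.

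Across all 11 other processings, 11 of 21 measured chains stayed below control contralaterally, against 29.6% of all genes, and 10 did ipsilaterally, against 20.7%. Contralaterally these were Col1a1, Col1a2, Col3a1, Col5a1, Col5a3, Col11a1, Col11a2, Col4a1, Col15a1, Col16a1 and Col26a1, and ipsilaterally Col9a2 replaced Col11a1 and Col11a2. Those that stayed above control were 4 on each side, against 22.8% and 9.42% of all genes. They were Col7a1, Col8a1, Col14a1 and, contralaterally, Col13a1 or, ipsilaterally, Col2a1. The ranges of signal used next were set after the values had been seen.

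Of the 8 collagens with a mean scaled signal of 9 or more, 7 were below 0 contralaterally and 7 ipsilaterally, with medians of -0.59 and -0.36. The 8490 genes in that range had medians of 0.04 and 0.03 and lower quartiles of -0.05 and -0.06, so fewer of them lay below 0 than above. Of the 5 collagens from 6 to 9, 3 were below 0 on each side, with medians of -0.12 contralaterally and -0.15 ipsilaterally. The 8462 genes from 6 to 9 had medians of -0.02 and -0.01. Of the 8 collagens under 6, 6 were above 0 ipsilaterally with a median of 0.44, and 3 were above 0 contralaterally with a median of -0.09. The 6303 genes under 6 had medians of 0.17 ipsilaterally and -0.04 contralaterally, and 9.01% of them lay above 1 ipsilaterally. Ipsilateral ratios above 0 were thus common among dim genes of every kind, and the negative controls had a median scaled signal of 1.57 on the ipsilateral, 1.12 on the contralateral and 1.06 on the control array. The part of background in the dim collagens was not tested.

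**Figure D4:**
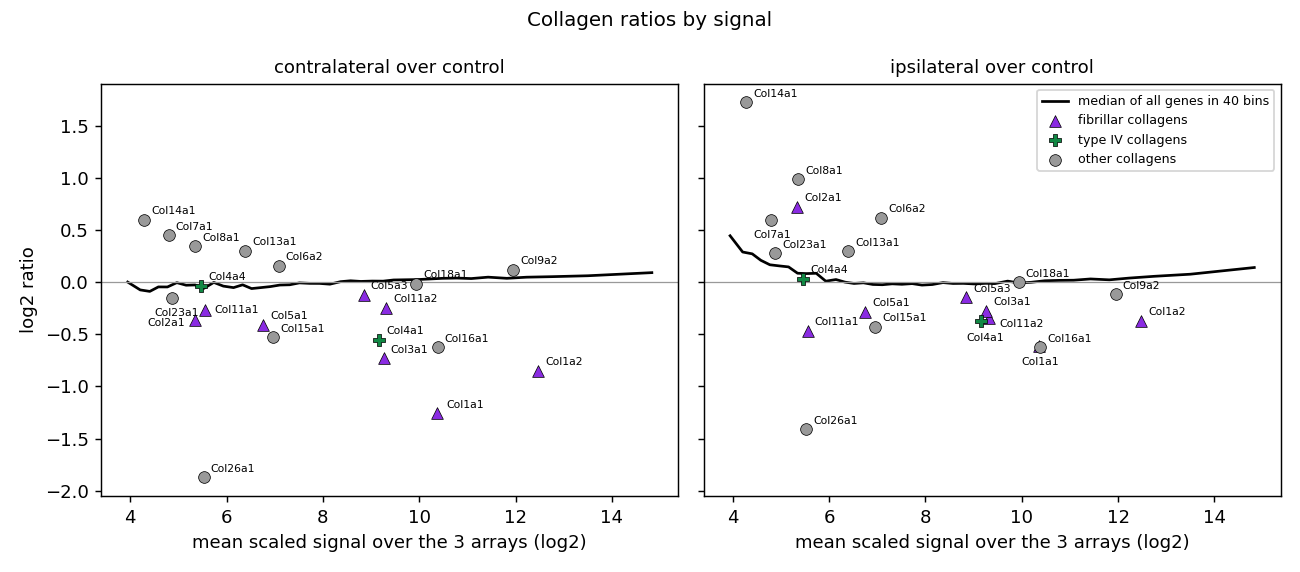
Log2 ratio to control (vertical axis) of each measured collagen chain gene against its mean scaled signal over the 3 arrays (log2, horizontal axis), contralateral left and ipsilateral right, with a line for the median of all genes in bins of equal size. Bright fibrillar chains lie below the line in both panels, and the line itself rises above 0 for dim genes in the ipsilateral panel; signs of single genes that change with scaling are given in the text.

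Chains that join in 1 molecule were set side by side where at least 2 were measured. In type I collagen, Col1a1 and Col1a2 had the same order of arrays. In type V, Col5a1 and Col5a3 were highest in control and the contralateral array was the lowest only for Col5a1. For both chains the MCAO arrays differed from each other by less than the scanner error. In type XI, Col11a1 and Col11a2 were highest in control and lowest ipsilaterally, and Col2a1 was highest ipsilaterally. For types IV, VI, VIII and IX, the partners of Col4a1, Col4a4, Col6a2 and Col8a1 were not analysed here, and Col9a1 had only the bound above.

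Collagen chains are hydroxylated, folded and exported with the help of dedicated proteins. Of 17 genes for chain modification and folding, 14 were measured, with medians of -0.16 contralaterally and -0.12 ipsilaterally, and 0 passed 1 or -1. The collagen chaperone Serpinh1, on 20 spots, had a scaled signal of 9.01 on the contralateral, 9.11 on the ipsilateral and 9.63 on the control array, with ratios of -0.63 and -0.53. It was lower on both sides, as type I and III chains were. P3h3 had the lowest ipsilateral ratio (-0.55), Crtap had the highest ipsilateral ratio (0.18) and P4ha2 the highest contralateral ratio (0.23), and Ppib, the brightest of the list, had -0.09 and -0.11. Of 14 genes for export, processing and cross-linking, 8 were measured, with medians of -0.38 and -0.21, which shrank to -0.23 and -0.13 with 50 added and to -0.23 and -0.04 with all probes. Among the lysyl oxidases, Loxl1 had ratios of -1.14 and -0.68 and Loxl4 had 1.64 and 1.36, each on 1 spot, so cross-linking enzymes lay on both sides of 0. Contralaterally Loxl4 was the only 1 of the 8 measured genes of this list above 0, and ipsilaterally 3 of 8 were above 0. Bmp1, the procollagen C-proteinase and the brightest, had -0.22 and -0.33.

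Among proteins that bind fibrils, 9 of 10 genes were measured, with medians of -0.46 and -0.16. The contralateral median log2 ratio shrank to -0.22 under normexp and -0.23 with 50 added, and the ipsilateral one turned to 0.06 under both. Tnc was at 5.71 on the contralateral, 5.79 on the ipsilateral and 7.57 on the control array, with ratios of -1.86 and -1.77. Fn1 was the highest, with ratios of 0.34 and 0.43, and the brightest, Bgn, had -0.46 and -0.16. Of 16 basement membrane genes other than collagens, 9 were measured, with medians of 0.05 and 0.08. Neither sign held, since the median log2 ratios turned to -0.10 and -0.46 without scaling and to -0.03 and -0.18 with spike-in scaling, and the contralateral one to -0.23 with all probes and -0.07 with probes well above background on at least 1 array. Sparc, the brightest, had 0.57 and 0.49, Lama4 had -0.86 and -0.60, and Nid2 had -0.69 and -0.84. Of 10 collagen receptor genes, 6 were measured, with medians of -0.29 and -0.11 (the latter 0.02 under normexp). They ran from Ddr1 (-0.44) contralaterally and Itga1, the brightest (-0.21), ipsilaterally up to Itga10 (0.59 and 1.06). Itga10 and Ddr1 were dim, with scaled signals from 4.2 to 5.3 and from 4.4 to 4.9 over the arrays.

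Markers of the cells that could carry collagen RNA were read beside the chains. Of 12 markers of leptomeningeal fibroblasts, the cells of the inner meninges, 11 were measured, and their summed scaled intensity was 5241 on the contralateral, 6079 on the ipsilateral and 7265 on the control array. Col1a1, Col1a2 and Col3a1 had this order of arrays, as had the summed markers of endothelium, mural cells and glia. The median log2 ratio of the markers was -0.43 contralaterally, where 10 of 11 were below 0, against 47.8% of all genes, and -0.24 ipsilaterally, where 9 of 11 were, against 44%, and where it shrank to -0.07 under normexp. Slc22a6, the brightest, had -0.61 and -0.46 and Lum had -0.95 and -0.63, while the highest were Pdgfra contralaterally (0.04) and Dcn ipsilaterally (0.23). Lum was dim, with scaled signals from 4.1 to 5.0 over the arrays. The list shares 3 genes, Dcn, Lum and Ogn, with the list of fibril-binding proteins, and its part in the collagen result was not tested.

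The 10 endothelial markers, all measured, had a summed scaled intensity of 5253 contralaterally, 5303 ipsilaterally and 6771 in control, and medians of -0.28 and -0.21. Contralaterally 9 of 10 were below 0, against 47.8% of all genes, and ipsilaterally 7 of 10, against 44%. Cldn5, the brightest, had -0.19 and -0.14, with extremes at Tie1 (-0.78) and Flt1 (0.04) contralaterally and at Kdr (-0.77) and Cdh5 (0.43) ipsilaterally. The 10 mural cell markers, also all measured, summed to 4682, 4843 and 5557, with medians of -0.23 and -0.14, from Vtn, the brightest (-0.49 and -0.48), to Notch3 (-0.03 and 0.18). Of these markers, 10 of 10 were below 0 contralaterally and 9 of 10 ipsilaterally, so lower values were not particular to the fibroblast list. The ipsilateral medians were close to 0 under other processing, at -0.05 for endothelium under normexp and -0.02 for mural cells with 50 added. The part of vessel cells in the collagen result was not tested.

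The choroid plexus lies next to the cerebellum and its stroma holds collagen. Of 10 markers of its epithelium, 8 were measured and Kl and Prlr were not well above background on every array. Their summed scaled intensity was 10818 on the contralateral, 77046 on the ipsilateral and 34219 on the control array, most of it from Ttr, at 13.27, 16.20 and 15.01. The median log2 ratio was -0.77 contralaterally and 0.48 ipsilaterally, from Slc4a5 (-2.12 and -1.20) to Otx2 (-0.02) contralaterally and Ttr (1.19) ipsilaterally. Slc4a5 was dim, at 3.7 on the contralateral, 4.6 on the ipsilateral and 5.8 on the control array. The ipsilateral median log2 ratio fell to 0.23 with spike-in scaling and turned to -0.05 without scaling. The contralateral one stayed negative but shrank to -0.40 under normexp and to -0.46 with 50 added. This order of arrays, lowest contralaterally and highest ipsilaterally, was that of 4 measured collagens, Col2a1, Col4a4, Col18a1 and Col23a1, of which Col2a1 alone differed from control beyond its error. Type I and III chains had another order, with the control array the highest. The part of choroid plexus in the collagen values was not tested.

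The medians of glial and microglial markers lay nearer to 0 than that of the fibrillar chains. The 7 glial markers had medians of -0.07 and 0.00, with extremes at Aqp4 (-0.55 and -0.45) and Gdf10 (0.39 and 0.27). Of 6 markers of microglia and macrophages, 5 were measured and Mrc1 was not, with medians of -0.01 and 0.08 (the latter -0.45 without scaling), from Aif1 (-0.29 and -0.10) to Cx3cr1, the brightest (0.78 and 1.27).

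**Figure D5:**
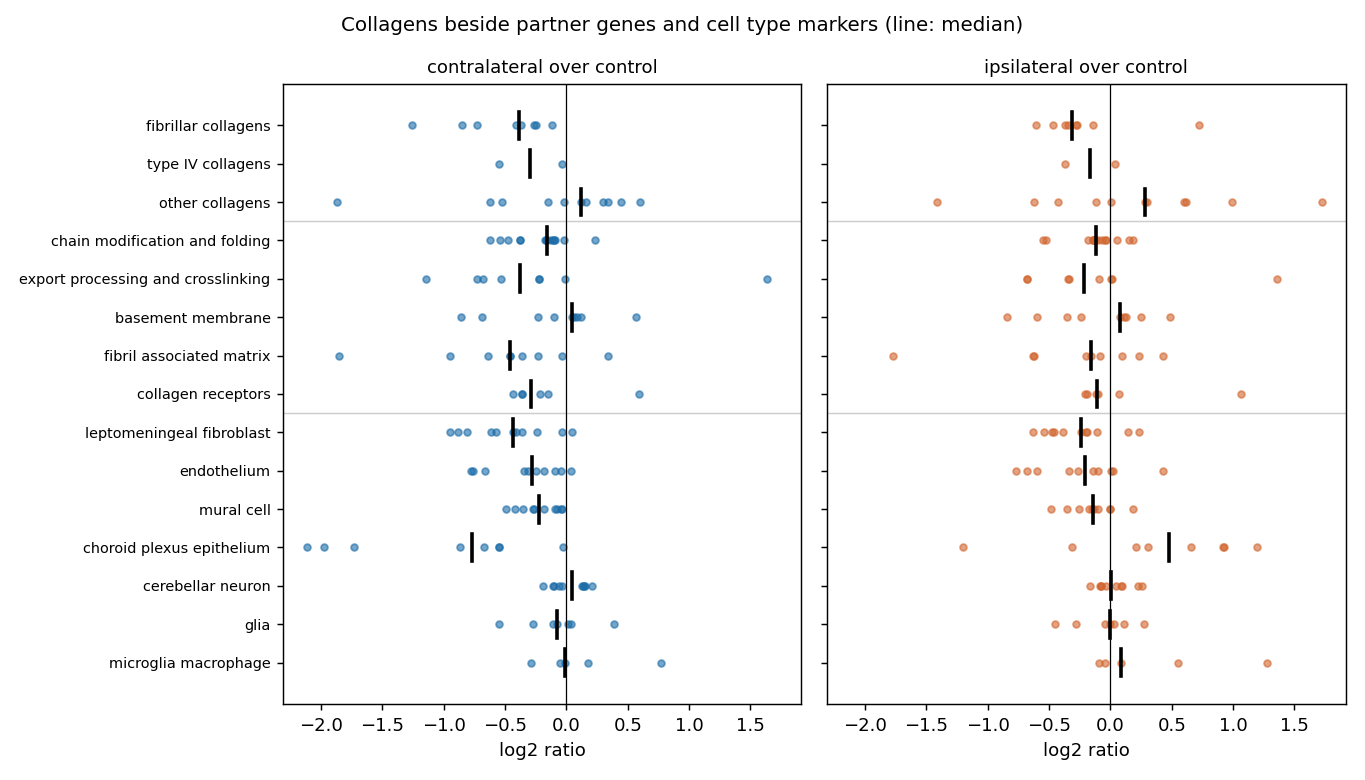
Log2 ratio to control (horizontal axis) of each measured gene, contralateral left and ipsilateral right, for the 3 collagen classes, 5 lists of genes that act with collagens and 7 lists of cell type markers, with a line at each median. Beside the fibrillar medians of -0.39 and -0.32, those of the 12 lists run contralaterally from -0.77 (choroid plexus) to 0.05 (basement membrane and neurons) and ipsilaterally from -0.24 (leptomeningeal fibroblasts) to 0.48 (choroid plexus); without scaling, the medians of 0.05 and 0.48 named here turn negative.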

How the data were processed

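Per the file headers, spot intensity values deposited by the authors came from Agilent Feature Extraction 12.1.0.3 run on 1-colour (Cy3) arrays, with background subtracted and spatial trends removed within an array. The deposited value table, used as an alternative, holds these intensity values multiplied by 1 factor per array (1.12, 1.45 and 1.04 for the contralateral, ipsilateral and control array) on a linear scale. All 3 arrays lay on 1 slide. Here, log2 processed signals were shifted to a common 75th percentile over spots that were not controls, the 759 spots marked as outliers were left out, and spots and then probes were averaged. Of 39957 accessions, 17622 matched a symbol in RefSeq's GRCr8 table. The 75th percentile was 2103, 1614 and 2336 before the shift. No test was run, as each group had 1 array, whose number limits the precision. Named were every measured collagen and, of each partner or marker list, the brightest gene and those with the highest and lowest ratios; 1 marker is not reported here. Members and lists were chosen with earlier results of these data known. The summarising step was tested on simulated data. Analyses used Python 3.11.15, numpy 2.4.6, pandas 2.3.3, matplotlib 3.10.9, R 4.3.3 and limma 3.58.1 (normexp), and 11 alternatives were tried.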

Additional observations from a re-analysis of the deposited data

Results flagged for a closer look

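Genes and list medians are given here where the contralateral and ipsilateral arrays lay on opposite sides of the control array, each by more than the scanner error. Col2a1 was lower than control contralaterally and higher ipsilaterally, and its log2 ratio of contralateral over ipsilateral was -1.09. The median of the choroid plexus epithelium markers did likewise, with -1.06 between the sides, and 5 of the 8 measured markers did so singly, against 1.5% of all genes, among them Ttr with -2.93. The opposite signs were lost for Col2a1 under normexp and for the marker median without scaling. Each side was 1 pool on 1 array, so for all of these the difference was not tested.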

How the results depend on the processing

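The medians of fibrillar and type IV collagens over control kept their sign under all 11 alternatives, from -0.57 to -0.18 and from -0.44 to -0.22 contralaterally and from -0.85 to -0.14 and from -0.70 to -0.012 ipsilaterally. The type IV median was nearest to 0 ipsilaterally with 50 added. Ipsilateral medians of fibrillar, type IV and other collagens over control were -0.85, -0.70 and -0.26 without scaling and -0.57, -0.42 and 0.024 with spike-in scaling, and the other collagens had 0.0011 with the brightest probe. Without scaling, contralateral over ipsilateral was 0.093, 0.26 and 0.23, and with spike-in scaling the type IV and other medians were 0.046 and 0.023. Those scalings move all genes by 1 factor per array. Contralaterally, 1 collagen was below -1 instead of 2 with normexp, with 50 added or with the brightest probe, and 3 were without scaling. Of all genes, 203 of 23255 were below -1 contralaterally before these changes. That number was 21 with normexp, 40 with 50 added, 211 of 23250 with the brightest probe and 348 without scaling. Ipsilaterally, those above 1 numbered 2 with scaling to the median and 0 with normexp or 50 added. All genes above 1 there went from 763 to 787, 125 and 176 in that order. Collagens below -1 ipsilaterally numbered 4 without scaling and 0 with normexp, 50 added, all probes or probes well above background on at least 1 array. All genes below -1 there went from 193 of 23255 to 1231 without scaling, 12 with normexp and 23 with 50 added. They numbered 1223 of 38973 with all probes and 892 of 27731 with probes well above background on at least 1 array. Between the sides, 1 was above 1 with all probes, 3 instead of 2 were below -1 with all probes or with probes well above background on at least 1 array, and 0 were below -1 without scaling or with quantile, spike-in, normexp or 50 added. Of all genes between the sides, 722 of 38973 were above 1 and 5217 below -1 with all probes. With probes well above background on at least 1 array, 2283 of 27731 were below -1, and 16 of 23255 were with normexp and 26 with 50 added. The causes of the other shifts were not tested. Of all genes past 1 or -1, 79.8% lay above ipsilaterally and 63% contralaterally, against 11.1% and 40.7% without scaling, 48.2% and 50.9% with spike-in and 64.8% ipsilaterally with quantile normalization. With all probes 81% lay above ipsilaterally and 42% contralaterally. With probes well above background on at least 1 array these were 73.5% and 43.7%. Between the sides 52 lay above and 376 below, against 186 and 124 without scaling, 126 and 183 with quantile and 86 and 220 with spike-in scaling. Of the values for single genes and lists, 927 moved by less than 0.21, the median scanner error of the collagens, and 162 by more, and 0 of those past 1 or -1 changed sign. Smaller values often did: under at least 1 alternative the sign turned for 6 of 21 collagens and 4 of 12 list medians contralaterally over control, 7 and 7 ipsilaterally, and 11 and 10 between the sides. No paired analysis was possible because each group had 1 array. Precision is limited by 1 pool of rats per array, by signals near background for the dim chains and by collagens without a matching accession.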
